A study of Mus musculus with 17 samples.

Results

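The cell lines compared here grew out of tumor cells found in bone marrow (BM) and in lymph nodes (LN) of mice with breast cancer, 4 lines from each organ out of the 14 bulk RNA-seq libraries of the series. All came from female FVB/NJ MMTV-PyMT mice of 10 to 12 weeks, which carry the polyoma middle T oncogene under a mammary tumor virus promoter, so that every line shares the same driver. Cells were enriched in culture for about 1 month and sorted by flow cytometry, and each organ gave 2 CD44low/EpCAMhigh and 2 CD44high/EpCAMhigh lines. Those 8 libraries were the members, and 13310 of 55450 deposited genes reached 1 TPM (a transcript level corrected for length and scaled to the same total in each library) in at least 2 of them and were tested. Replicates were clonal isolates of different mice, but the labels do not say whether a CD44low and a CD44high line of an organ came from the same mouse, so 4 lines may stand for fewer mice, and the p-values measure only the spread between these lines. The 2 lines of the mammary fat pad (MFP) primary tumor, which carry no CD44 label, and the 4 lung lines are used only to place the levels.

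Metastatic breast cancer cells reach regional nodes mainly through lymphatic vessels and bone marrow through the blood. Bone marrow is known for stromal and myeloid cells that exchange chemokines, acute-phase proteins and osteoclast-regulating factors with tumor cells, and lymph nodes for lymphoid cells, interferon and prostaglandin signals. The study asked which transcripts follow the organ from which a metastatic line was taken. The question here is narrower, namely which genes separate BM from LN lines once the CD44 sort is taken into account, in cells that had left both organs and grown in culture.

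In total, 15 genes were higher in BM lines, 0.113% of those tested, and 3 were higher in LN lines, 0.0225%, by limma with a Benjamini-Hochberg adjusted p under 0.05 (called changed below). With the added requirement of an absolute log2 fold change over 2, the DEGs of the study's definition of size, 10 were higher in BM (0.0751%) and 2 in LN (0.015%). The genes higher in BM comprised 3 enzymes that detoxify aldehydes and electrophiles (Aldh3a1, Gsta3 and Gstm1), an on-off pair (Rtl3 and H2afy2), 5 genes of secreted or surface proteins (Srpx2, Ogn, Nfasc, Jam3 and Susd5) and 4 others of separate functions (P2ry6, Pde9a, Dlgap1 and Cited1), besides the unclassified transcript Gm10517. Those higher in LN were the small heat shock protein Hspb8, the TWEAK receptor Tnfrsf12a and the small nucleolar RNA Gm25117. At an unadjusted p under 0.05, 856 genes were higher in BM and 341 in LN. The median difference over all genes was 0.05 on the log2(TPM + 1) scale, on which all differences below are given as BM minus LN.

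**Figure D1:**
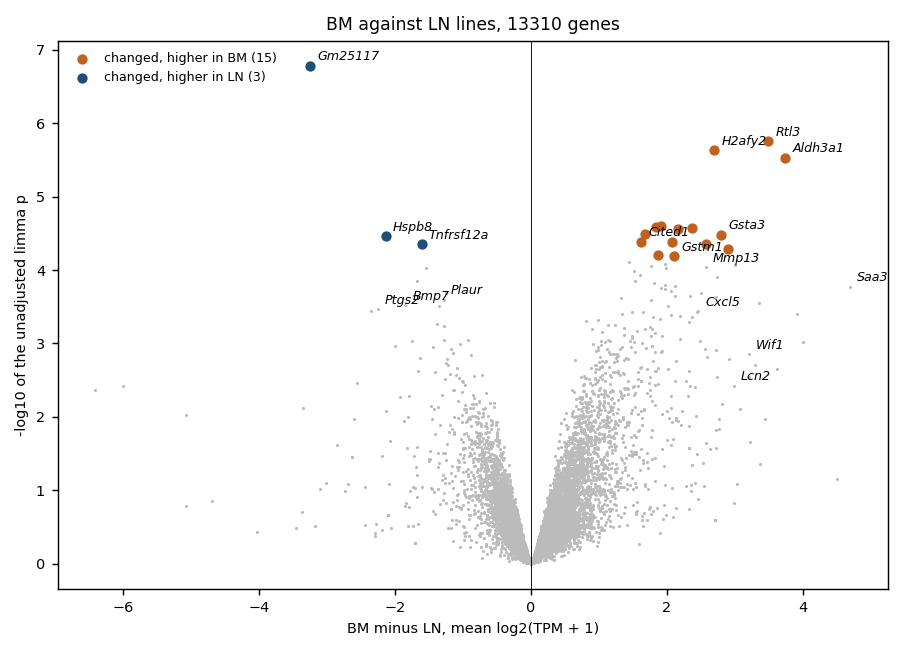
Difference between BM and LN lines (x axis, mean log2(TPM + 1) of BM minus LN, with the CD44 label as a term) against the negative log10 of the unadjusted limma p (y axis) for 13310 genes. Orange points are the 15 changed genes higher in BM and blue points the 3 higher in LN, and gray points, among them Saa3, Cxcl5 and Ptgs2, did not pass the threshold.

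These calls rested on few libraries. When each library was left out in turn, the number of changed genes fell to between 1 and 9, of which 1 to 6 were among the 18. Without the first BM CD44high line no gene was called higher in BM, and without the second LN CD44high line likewise none, whereas the differences of the 18 genes themselves kept their sign in all 8 fits. Gm25117 was called in 8 of 8 fits, Rtl3 and H2afy2 in 6, Aldh3a1 in 5, each of Gsta3, Dlgap1, P2ry6 and Hspb8 in 1, and the other 10 genes in 0. Just outside the threshold, at an adjusted p of 0.0503, lay Mmp13, Fas, Cbr2, Angpt4 and Pdgfrl, while Gstm1 and Pde9a lay just inside at 0.048.

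As a check of the libraries, Epcam lay between 315 and 941 TPM in all 8, and the summed level of 10 epithelial markers was 2526 to 4789 in BM and 2256 to 4840 in LN, although Krt19 and Cldn7 stayed under 1 TPM. Every marker of endothelial, lymphatic endothelial, B cell and adipocyte identity was under 1 TPM in all 8 libraries, and so were Ptprc, Ly6g, Elane, Mpo, Adgre1 and Csf1r. Cd44 RNA did not follow the sort, with 43.8 and 74.9 TPM in BM CD44low, 50.5 and 49.0 in BM CD44high, 147 and 82.7 in LN CD44low, and 49.0 and 52.3 in LN CD44high lines. The second BM CD44low line stood apart, with a mean correlation of 0.881 to the other 7 against 0.913 to 0.937 for those, and with 13052 genes at 1 TPM or more against 11613 to 12078. Across all genes, correlations between lines of the same organ (0.877 to 0.959, median 0.93) covered nearly the same range as those between organs (0.861 to 0.96, median 0.926).

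The enzymes Aldh3a1, Gsta3 and Gstm1, which act on aldehydes and electrophiles, were higher in BM. Aldh3a1, an aldehyde dehydrogenase that oxidizes aromatic and lipid-derived aldehydes (chr11:61207537-61218421, plus strand, mm10), was measured at 532 and 192 TPM in the BM CD44low lines, 1073 and 1164 in BM CD44high, 17.1 and 29.0 in LN CD44low, and 106 and 69.1 in LN CD44high lines. The lowest BM line thus lay above the highest LN line, and mean TPM was 13.4-fold higher in BM (difference 3.74, SE 0.33, adjusted p = 0.00983, n = 4 lines per organ). This call was lost without the first BM CD44high (adjusted p = 0.0561), the first LN CD44low (0.0759) or the second LN CD44high line (0.0626). Gsta3, an alpha class glutathione transferase, stood at 11.7, 8.98, 19.6 and 13.7 TPM in BM and at 0, 0.46, 3.90 and 1.31 in LN, in the same order of lines, a difference of 2.80 (SE 0.34, adjusted p = 0.0392). Gstm1, a mu class transferase whose reads may be shared with its close paralogs, stood at 33.5, 28.9, 59.6 and 49.0 TPM in BM and at 4.15, 9.03, 16.9 and 8.84 in LN (difference 2.11, SE 0.28, adjusted p = 0.048). For each of these enzymes the 4 BM lines lay above the 4 LN lines, and within both organs the CD44high lines had the higher mean.

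The rest of the glutathione, NRF2 and aldehyde list did not move with them. Of 28 tested members, 3 were higher in BM, where 0.113% of all genes were, and 0 in LN. The 3 became 1 with a pseudocount of 0.1 and 0 to 2 with a library left out. Among the 28, 14 differences were positive and 14 negative, and the median was 0.05, the value of all genes. With a library left out the list median ranged from -0.051 to 0.229. The highest value came without the first BM CD44low line, where the median of all genes was 0.116. Aldh1a1, another aldehyde dehydrogenase, had 6.25, 2.33, 1.35 and 1.83 TPM in BM and 0.11, 0, 0 and 0 in LN without passing the threshold (adjusted p = 0.0963), and Cbr2, a carbonyl reductase that was no member of the list, had 107, 84.2, 306 and 146 TPM in BM against 4.56, 6.15, 58.9 and 42.3 in LN. The NRF2 gene Nfe2l2 differed by -0.04 and its targets Hmox1, Gclc and Txnrd1 by -0.33, -0.32 and -0.20, each with overlapping libraries.

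The 250 bases before the RefSeq start of 4 genes higher in BM are shown on build GRCm38.p6, 5′ to 3′ in the direction of transcription. They are a choice from the windows searched for shared motifs, and other windows that hold a match are not shown. Capitals mark matches to the antioxidant response element core TGACNNNGC or the xenobiotic response element core GCGTG on either strand, and the window of Rtl3, which has no match, is shown beside the others.
Gsta3, chr1:21240335-21240584, plus strand: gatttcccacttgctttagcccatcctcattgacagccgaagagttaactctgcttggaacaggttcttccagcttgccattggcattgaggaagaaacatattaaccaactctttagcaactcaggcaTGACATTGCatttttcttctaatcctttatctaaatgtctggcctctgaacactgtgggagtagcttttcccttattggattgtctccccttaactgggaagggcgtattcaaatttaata
Gstm1, chr3:108017974-108018223, minus strand: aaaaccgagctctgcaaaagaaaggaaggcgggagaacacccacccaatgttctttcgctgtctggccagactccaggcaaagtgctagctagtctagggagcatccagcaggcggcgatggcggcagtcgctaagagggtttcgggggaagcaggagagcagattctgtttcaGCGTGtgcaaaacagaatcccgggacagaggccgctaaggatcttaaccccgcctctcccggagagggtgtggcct
Srpx2, chrX:133908175-133908424, plus strand: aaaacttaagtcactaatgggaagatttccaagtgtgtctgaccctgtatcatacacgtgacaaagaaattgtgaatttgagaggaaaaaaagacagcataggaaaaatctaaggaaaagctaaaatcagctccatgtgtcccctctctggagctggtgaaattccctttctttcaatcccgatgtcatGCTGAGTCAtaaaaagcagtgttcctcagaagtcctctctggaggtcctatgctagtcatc
Rtl3, chrX:106840540-106840789, minus strand: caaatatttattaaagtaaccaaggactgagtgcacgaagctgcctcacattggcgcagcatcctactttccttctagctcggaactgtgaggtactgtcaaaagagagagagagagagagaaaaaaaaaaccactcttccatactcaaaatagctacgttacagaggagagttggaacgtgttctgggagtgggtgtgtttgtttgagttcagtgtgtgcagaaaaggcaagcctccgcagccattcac

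Windows were found for 12 of the 16 changed protein-coding genes, not for Aldh3a1, Jam3, P2ry6 and Pde9a. The window of Nfasc, counted among the 12, belongs to a start 34471 bases from the GENCODE gene start and held no match. The antioxidant core was present in 2 of the 12, Gsta3 at 121 and Srpx2 at 61 bases before the start, where 10.2% of 32851 mouse windows hold it. The xenobiotic core was present in 5 of the 12, among them Gstm1 at 76 bases, against 28.2% of all windows, and the heat shock element TTCNNGAA in 0 of the 12, that of Hspb8 included, against 7.17%. These matches are letters in a window and were not measured as bound sites.

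Rtl3 and H2afy2 were the protein-coding genes that were on in BM and off in LN, by the rule of at least 5 TPM in all lines of 1 organ and under 0.5 TPM in all lines of the other. Rtl3, a gene of the X chromosome derived from a retrotransposon gag sequence (chrX:106837082-106840644, minus strand), was at 5.89, 7.14, 16.7 and 15.0 TPM in the BM lines and was listed at 0 in all 4 LN lines (adjusted p = 0.00983). It was also listed at 0 in both MFP lines and reached at most 0.04 TPM in lung, so among the 14 libraries it was detected above that level only in BM. H2afy2, which encodes the histone variant macroH2A2 known for compact and silenced chromatin, was at 7.64, 6.10, 5.85 and 7.89 TPM in BM and 0.42, 0.18, 0 and 0.28 in LN (difference 2.69, SE 0.23, adjusted p = 0.00983). Both calls were lost without the first BM CD44high line (adjusted p = 0.0561) or the second LN CD44high line (0.0626). H2afy2 overlaps Aifm2 on the other strand, and without strand, reads from any exon sequence that they share cannot be told apart. Whether their exons overlap was not checked. Unlike Rtl3, H2afy2 was at 17.0 to 26.4 TPM in the 4 lung lines.

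Srpx2, Ogn, Nfasc, Jam3 and Susd5, which encode secreted or surface proteins, were also higher in BM. Srpx2, a secreted sushi-repeat protein, was at 11.9, 9.26, 10.2 and 11.1 TPM in BM and 0.33, 1.27, 1.70 and 2.15 in LN (difference 2.36, SE 0.28, adjusted p = 0.0392). Ogn, the small leucine-rich proteoglycan osteoglycin of bone and connective tissue, was at 7.68, 8.05, 10.2 and 17.4 TPM in BM and 0.55, 1.03, 2.15 and 3.03 in LN (difference 2.16, SE 0.26, adjusted p = 0.0392). Ogn lies within Cenpp on the other strand, and the library protocol is not stated to keep strand. Reads from any exon sequence that these genes share could thus not be told apart, and whether their exons overlap was not checked. The summed level of the fibroblast markers was also higher in BM, 43.6 to 46.2 TPM against 7.43 to 32.1 in LN. A large part of it was Postn alone, at 23.7 to 35.1 TPM in BM and 3.09 to 23.6 in LN. Col1a2, Col3a1, Lum, Thy1 and Fap, 5 of the 10 markers, were under 1 TPM in all 8 lines. The summed osteoblast markers were 13.02 to 43.98 TPM in BM and 1.69 to 15.2 in LN, with Sp7 and Ibsp, 2 of the 6, under 1 TPM in all 8 lines and none changed. The part of either marker set in these differences was not tested. Levels of the other 3 were lower. Nfasc, an adhesion molecule best known from axons, was at 2.62 to 4.10 TPM in BM and 0.08 to 0.19 in LN (difference 1.91, SE 0.23), Jam3, a junctional adhesion molecule, at 2.41 to 4.90 against 0 to 0.40 (2.08, SE 0.26), and Susd5, a sushi-domain protein, at 2.33 to 4.97 against 0 to 0.76 (1.84, SE 0.22), each with an adjusted p of 0.0392. None of the 5 had overlapping organs.

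The remaining protein-coding genes higher in BM were P2ry6, Dlgap1, Pde9a and Cited1. P2ry6, the receptor for the extracellular nucleotide UDP, was at 6.13, 7.08, 28.2 and 16.3 TPM in BM and 0.39, 1.35, 1.89 and 1.48 in LN, 11.3-fold higher by mean TPM (difference 2.57, SE 0.33, adjusted p = 0.0392). Dlgap1, a scaffold protein of the synapse, was at 12.8, 14.9, 26.03 and 14.8 TPM in BM and 0.17, 0.61, 5.07 and 1.67 in LN (2.90, SE 0.38, adjusted p = 0.0429). Pde9a, a phosphodiesterase that hydrolyzes cyclic GMP, was at 6.34 to 9.42 TPM in BM and 0.43 to 2.65 in LN (1.87, SE 0.25, adjusted p = 0.048). Cited1, a transcriptional co-regulator expressed in mammary ductal epithelium, was at 11.6, 9.08, 13.7 and 14.3 TPM in BM and 2.39, 2.56, 4.47 and 3.92 in LN (1.62, SE 0.20, adjusted p = 0.0392). Cited1 was the 1 changed gene among 19 tested members of the mammary lineage and milk list, whose median of 0.21 came with 11 positive and 8 negative differences and was 0.072 without the second and 0.419 without the first BM CD44low line. In the milk protein gene Csn3 the libraries overlapped, with 4.37 to 26.6 TPM in BM and 0 to 4.45 in LN (adjusted p = 0.223).

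**Figure D2:**
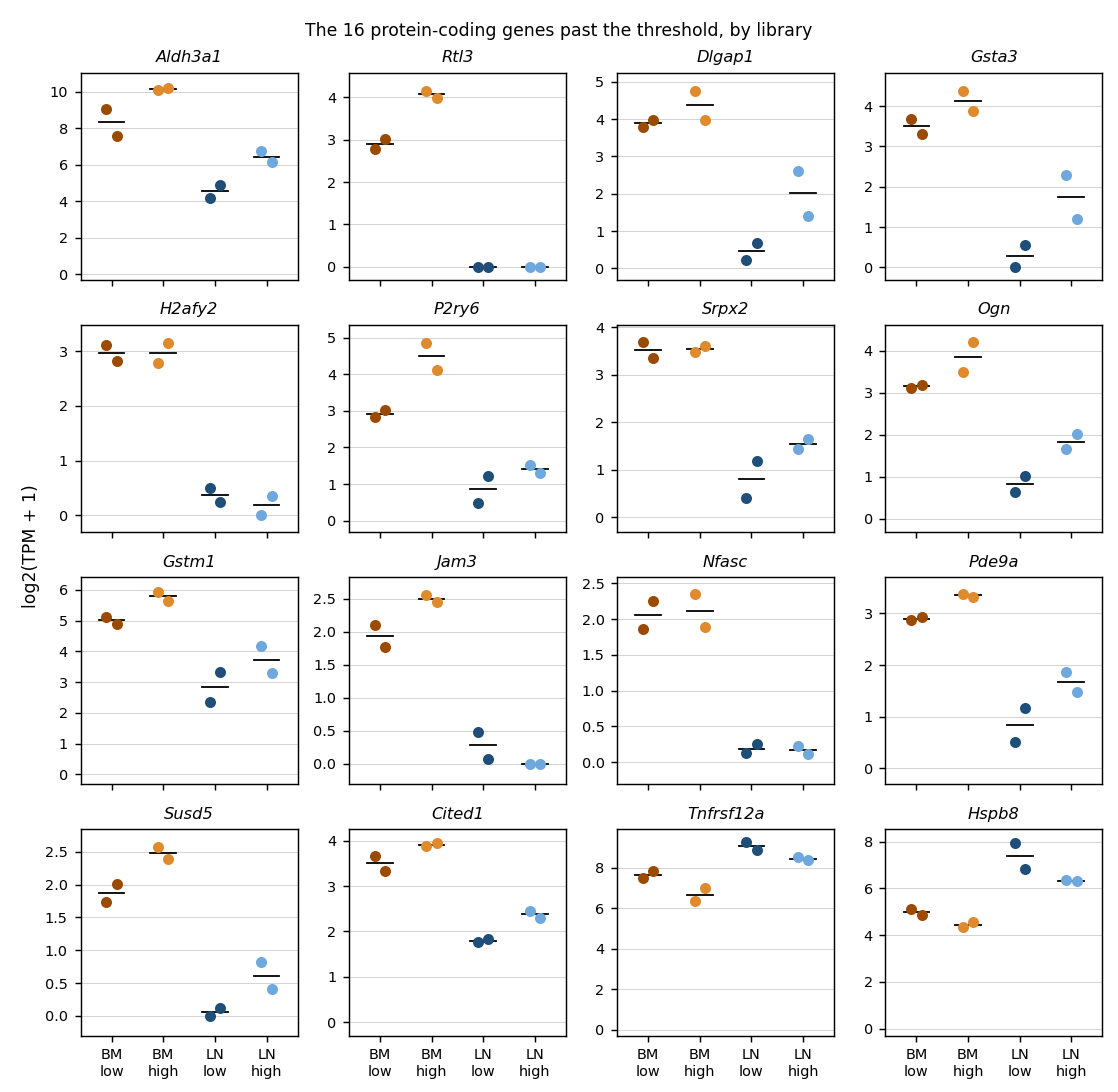
Levels of the 16 changed protein-coding genes as log2(TPM + 1) (y axis, own scale per panel, starting just under 0) in the 2 BM CD44low, 2 BM CD44high, 2 LN CD44low and 2 LN CD44high lines (x axis). Each point is 1 library and each bar the mean of 2, and in every panel the 4 lines of one organ lie above the 4 of the other.

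The genes higher in LN were Hspb8, Tnfrsf12a and Gm25117. Hspb8, a small heat shock protein that takes part in chaperone-assisted autophagy, was at 245, 112, 80.4 and 78.2 TPM in the LN lines and 33.6, 27.8, 19.3 and 22.8 in BM, 4.99-fold higher in LN by mean TPM (difference -2.14, SE 0.26, adjusted p = 0.0392). Tnfrsf12a, also called Fn14, the receptor of the TNF-family cytokine TWEAK, was at 625, 478, 370 and 335 TPM in LN and 178, 228, 81.1 and 127 in BM, 2.94-fold higher (difference -1.61, SE 0.21, adjusted p = 0.0392). In both genes the CD44low lines of an organ had the higher mean. Gm25117, an annotated snoRNA of 144 bases inside Nap1l1 on the same strand (chr10:111481493-111481636), was listed at 0 in all BM lines and at 8.36 to 8.77 TPM in all LN lines (adjusted p = 0.00218). The TPM of so short a gene can rest on very few reads, and the counts behind these values were not used here.

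Of the 15 genes higher in BM, 14 were under 1 TPM in both MFP lines, the exception being Aldh3a1 with 30.8 and 41.4 TPM. In 7 of the 15 the 4 lung lines were also under 1 TPM, while in 4 (H2afy2, Srpx2, Jam3 and Gstm1) every lung line was above every BM line. The same counts over all tested genes were not computed. The median MFP level was 0.113 for the 15 genes and 3.57 for all tested genes, as log2(TPM + 1). The epithelial genes Epcam and Krt8 were at 0 to 0.86 and 0 to 27.8 TPM in the lung lines, against 725 to 837 and 2631 to 2966 in the MFP lines. Of the genes higher in LN, Tnfrsf12a was at 785 and 476 TPM in MFP, above all BM lines, and Hspb8 at 2.47 and 4.53, under all BM lines. Whether the MFP lines came from the same mice is not stated.

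Beyond the calls, 566 genes had all 4 BM lines above all 4 LN lines, 4.25% of those tested, and 229 the reverse, 1.72%. This balance depended on 1 library and on scaling, with 751 and 821 genes without the second BM CD44low line and 551 and 317 with median ratio scaling. With that count as a background, 31 gene lists were described, with 586 tested genes in all. Changed members were present in 2 lists, described above, and in 0 of the other 29. Members named below beyond the study's own genes and the most abundant member of a list were chosen after their values were seen. The lists farthest from the median of all genes held secreted and inducible defense genes.

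Acute-phase and antimicrobial secreted proteins had the largest median of all lists, 2.13, with 14 of 16 differences positive, and 5 of 16 (31.2%) had BM lines all above LN lines, but none passed the threshold. A pseudocount of 0.1 in place of 1, which gives low genes more weight, raised this median to 2.93 with 1 call, and those of the chemokine, complement and interferon lists below to 1.68, 1.5 and 1.02 with 0 calls. Saa3, the serum amyloid A of extrahepatic tissue, was at 9.15 and 11.2 TPM in BM CD44low, 827 and 317 in BM CD44high, 0.48 and 0.66 in LN CD44low, and 5.30 and 3.71 in LN CD44high lines (difference 4.69, SE 0.72, adjusted p = 0.066). Lcn2, the iron-binding lipocalin also known as NGAL, was at 2734, 2609, 12527 and 6172 TPM in BM, against 46.0, 296, 3753 and 2686 in LN, so the organs overlapped (2.98, SE 0.75, adjusted p = 0.218). The LN CD44low lines were far below the other 6 in Lcn2, Wfdc18 and Pglyrp1. Chil1, a chitinase-like lectin, was at 15.9 to 62.5 TPM in BM and 2.16 to 12.9 in LN (2.12, SE 0.33, adjusted p = 0.066). S100a8, a calcium-binding protein abundant in neutrophils, was at 13.1 to 325 TPM in BM and 0 to 6.36 in LN (adjusted p = 0.0926). It was the tested neutrophil marker, while its partner S100a9 and also Ly6g, Elane, Mpo, Retnlg and Ngp were under 1 TPM in all 8 lines. The summed macrophage markers were 74.9 to 268 TPM in BM and 22.1 to 62.1 in LN, carried by Cd14, Cd68 and Lyz2, with Adgre1, Csf1r, Mrc1, Fcgr1, C1qa and C1qb under 1 TPM. The part of these markers in the differences was not tested.

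Chemokine ligands had a median of 0.999, with 10 of 14 differences positive and 3 non-overlapping. Cxcl5, which attracts neutrophils, was at 184 and 96.9 TPM in BM CD44low, 2555 and 1685 in BM CD44high, 55.9 and 15.6 in LN CD44low, and 385 and 234 in LN CD44high lines (2.46, SE 0.42, adjusted p = 0.0908), so that each BM pair lay above the LN pair of the same CD44 label. Ccl2, which recruits monocytes and was named by the study for BM, was at 56.3, 61.9, 101 and 196 TPM in BM and 33.1, 8.98, 34.5 and 36.5 in LN (1.83, SE 0.38, adjusted p = 0.147). Cx3cl1 and Ccl7 likewise did not overlap, with differences of 2.01 and 1.92 (adjusted p = 0.0841 and 0.148). Complement components had a median of 0.71 over 9 genes, with C3, the central component, at 19.6, 16.5, 98.7 and 58.4 TPM in BM and 5.02, 3.68, 30.5 and 27.2 in LN (1.60, SE 0.23, adjusted p = 0.0573).

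Interferon-stimulated genes had a median of 0.70, with 32 of 35 differences positive and 9 of 35 (25.7%) non-overlapping with BM above. Ifi27l2a was at 8.85, 17.2, 40.6 and 13.9 TPM in BM and 0, 2.16, 6.81 and 0.43 in LN (2.91, SE 0.63, adjusted p = 0.16). MHC class I presentation had a median of 0.50 and 7 of 21 non-overlapping genes, led by the immunoproteasome subunit Psmb8 at 85.1, 73.4, 138 and 96.6 TPM in BM and 11.5, 48.0, 39.1 and 30.7 in LN (1.70, SE 0.39, adjusted p = 0.182). With TPM scaled by the median ratio between libraries, the medians stayed at 0.68 and 0.49, while the non-overlapping genes fell to 3 and 2. The class I light chain B2m itself differed by -0.21, with overlapping libraries.

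**Figure D3:**
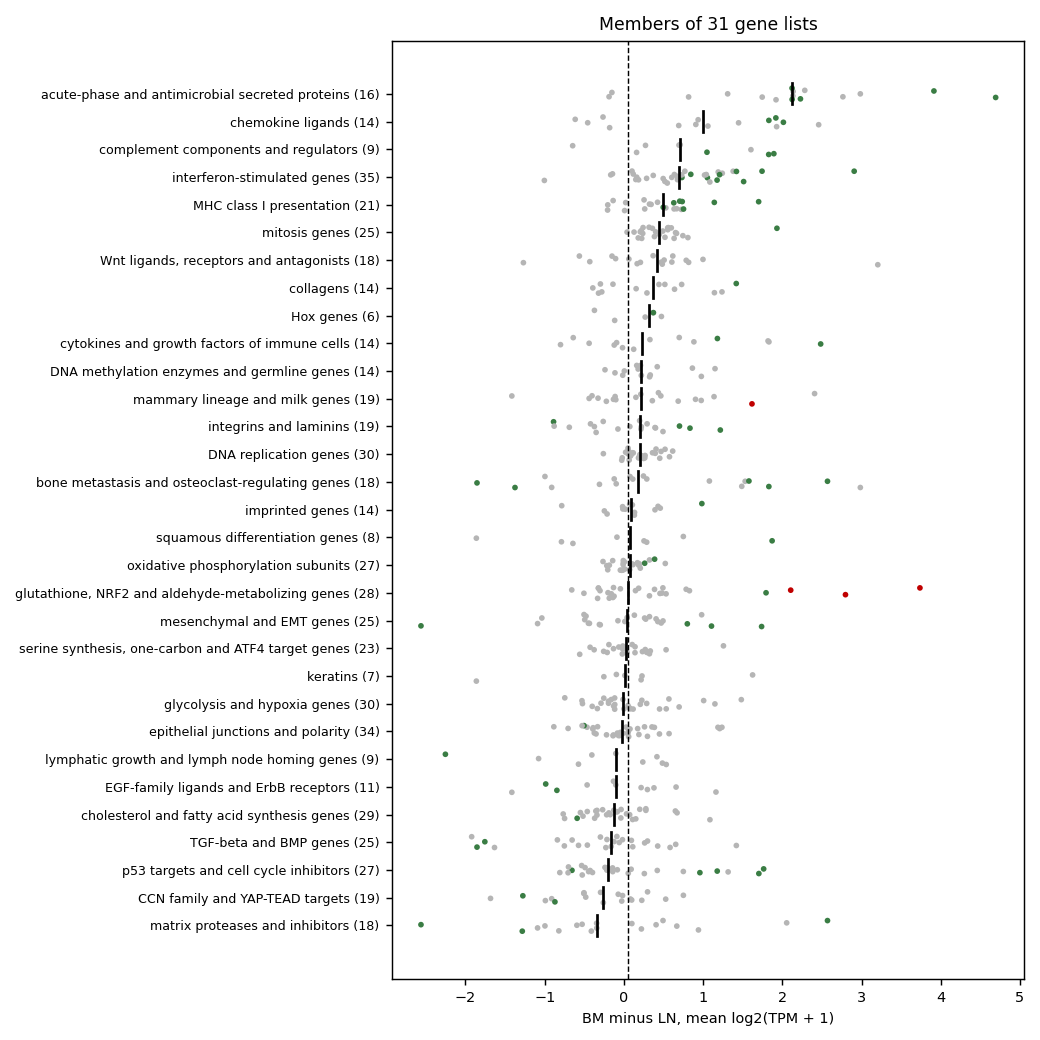
BM minus LN differences, in log2(TPM + 1), of the tested members of 31 gene lists (number of members in parentheses), ordered by the list median, which is the black bar. Red points are changed genes, green points have non-overlapping organs, gray points overlap, and the dashed line is the median of all genes, 0.05.

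Genes chosen for a link to bone were mixed. In the list of bone metastasis and osteoclast-regulating genes, 0 of 18 changed and the median was 0.18. It was 0.063 without the second BM CD44low line, 0.074 without the second LN CD44low line and 0.451 with a pseudocount of 0.1. That pseudocount gave 1 call higher in BM, and median ratio scaling gave 1 call higher in LN. Non-overlapping genes went both ways, 3 higher in BM and 2 in LN. Mmp13, a collagenase of bone resorption, was at 3.46, 5.14, 17.9 and 9.99 TPM in BM and 0.41 to 0.52 in LN (2.57, SE 0.36, adjusted p = 0.0503), and Vcam1, an integrin ligand, at 1.7 to 7.0 against 0.21 to 1.45. Tnfrsf11b, the osteoclast inhibitor osteoprotegerin, went the other way, with 37.9 to 78.2 TPM in BM and 95.2 to 295 in LN (-1.37, SE 0.39, adjusted p = 0.29), as did Bmp7, with 0.38 to 1.41 against 2.84 to 12.7 (-1.85, SE 0.31, adjusted p = 0.0841). Spp1, osteopontin, which the study names for BM, was among the most abundant transcripts in both organs, at 6639, 1793, 9361 and 6233 TPM in BM and 793, 1595, 5930 and 4641 in LN (1.08, SE 0.46, adjusted p = 0.545).

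Over both CD44 labels, genes that the study names for the LN niche did not pass the threshold used here. The study examined them across all its lines, MFP and lung included, rather than in BM against LN. Its DEG rule was a p value under 0.05 with a fold limit, and no adjustment is stated. Lcn2, which the study names for BM, is described above with the acute-phase proteins. Ptgs2, the inducible cyclooxygenase of prostaglandin synthesis, was at 402, 238, 60.6 and 92.3 TPM in LN and 36.4, 31.5, 27.4 and 30.0 in BM, without overlap (-2.25, SE 0.38, adjusted p = 0.0903), although it passed within CD44low lines (-3.15, adjusted p = 0.0236), while Irf5 and Ywhah differed by 0.24 and 0.42 (adjusted p = 0.913 and 0.745), with BM the higher mean. Among the other genes that it names, Ceacam1 (1.49), Adamts1 (-0.997) and Cdh1 (0.06) overlapped between organs, with adjusted p-values of 0.603, 0.622 and 0.98, and Igfbp3 and Cxcr4 were too low to be tested. Of the further markers it names for BM, Tnfsf11, the osteoclast ligand RANKL, was listed at 0 in all 8 lines, and Il2 was at 0.26 to 0.66 TPM in BM and 0.33 to 1.48 in LN. In the lymphatic growth and node homing list, 0 of 9 changed and the median was -0.10, which turned to 0.20 without the first BM CD44low line, 0.095 without the first LN CD44low line and was -0.357 without the second BM CD44low line.

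Some members of the matrix protease, EGF and BMP lists had higher levels in all LN lines, none past the threshold. Plaur, the urokinase receptor, was at 120.1, 90.4, 78.8 and 77.1 TPM in LN and 54.7, 31.7, 29.1 and 34.9 in BM (-1.28, SE 0.21, adjusted p = 0.0767). Its list, matrix proteases and inhibitors (median -0.34 over 18), had 0 changed members, or 1, higher in BM, with a pseudocount of 0.1. The median of this list was -0.045 without the first BM CD44low line and -0.053 without the first LN CD44low line. None changed among mesenchymal genes, whose median was 0.04 over 25 and ranged from -0.068 to 0.146 with a library left out. In the EGF family list (median -0.10 over 11) the ligands Hbegf and Btc did not overlap, with differences of -0.99 and -0.85, and Areg, amphiregulin, was at 224, 86.3, 52.9 and 49.0 TPM in LN and 36.8, 73.2, 20.2 and 16.6 in BM (-1.41, SE 0.33, adjusted p = 0.185). The TGF-beta and BMP list had a median of -0.16 over 25 genes, with 17 negative. With median ratio scaling 1 of its members was called higher in LN. Without the first BM CD44low line the medians of the EGF and of the TGF-beta and BMP lists turned to 0.074 and 0.025, so that their direction rested on 1 library.

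**Figure D4:**
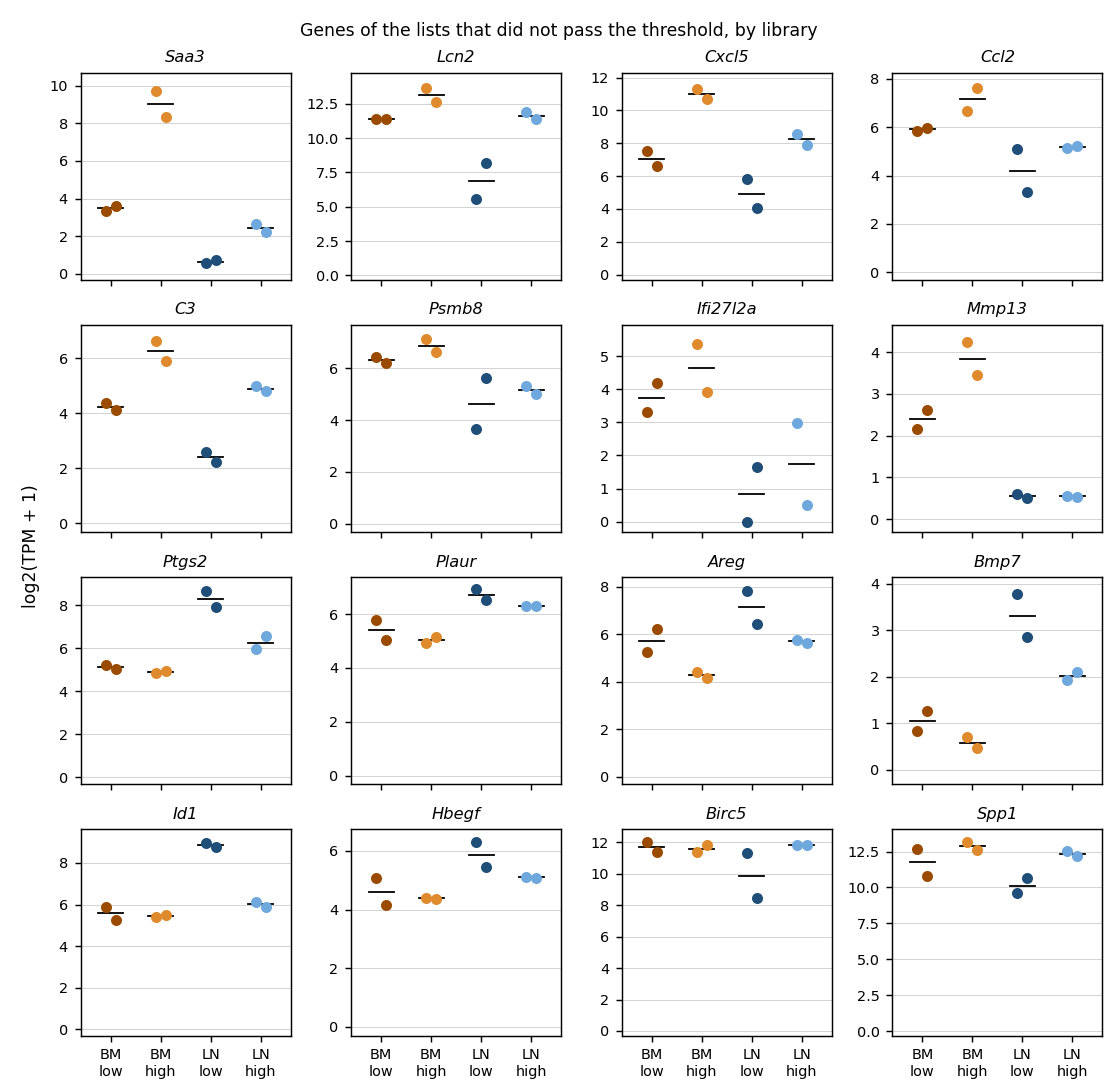
Levels of 16 list members that did not pass the threshold over both CD44 classes, as log2(TPM + 1) (y axis, own scale per panel) in the 2 BM CD44low, 2 BM CD44high, 2 LN CD44low and 2 LN CD44high lines (x axis), with 1 point per library and a bar at the mean of 2. Saa3, Ccl2, Psmb8, Ifi27l2a and Mmp13 have BM lines above LN lines, Ptgs2, Plaur, Bmp7 and Hbegf the reverse, and Birc5 is low in 1 LN CD44low line.

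Proliferation genes separated 1 line rather than the organs. The mitosis list had a positive difference in 25 of 25 genes and a median of 0.45, yet 0 changed, and all 25 were lowest in the second LN CD44low line, at a median of 0.136 of the level of the other 7. Birc5, survivin, was at 345 TPM there and 2496 to 4172 elsewhere, and Mki67 at 1.07 and 5.91 to 28.1. Without that line the median turned to -0.33. The median was 1.19 within CD44low and -0.41 within CD44high cells. DNA replication genes followed with a median of 0.20 over both classes, 0.62 within CD44low and -0.27 within CD44high cells, and it was -0.16 without the second LN CD44low line.

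Most other programs had medians within 0.5 of 0. Epithelial junctions (-0.03), keratins (0.01), glycolysis (-0.01), oxidative phosphorylation (0.07), sterol and fatty acid synthesis (-0.13), serine and ATF4 genes (0.02), imprinted genes (0.09), squamous genes (0.08) and integrins and laminins (0.20) each had 0 changed genes. The same held for immune cytokines (0.23), p53 targets (-0.20), CCN and YAP targets (-0.26), Hox genes (0.32), germline genes (0.21), collagens (0.37) and Wnt genes (0.42). The Wnt antagonist Wif1 stood out among the last, with 22.5 to 152 TPM in BM and 0.45, 1.01, 41.4 and 6.38 in LN (3.20, SE 0.68, adjusted p = 0.149). With 1 library left out, the medians of 15 of the 31 lists changed sign in at least 1 of 8 fits. Among the lists of this paragraph, the widest ranges were those of glycolysis (-0.27 to 0.36), squamous genes (-0.27 to 0.38), Wnt genes (-0.091 to 0.62), keratins (-0.25 to 0.29), serine and ATF4 genes (-0.23 to 0.23) and CCN and YAP targets (-0.50 to -0.044). The ranges were -0.185 to 0.073 for epithelial junctions, -0.047 to 0.11 for imprinted genes, -0.081 to 0.27 for integrins and laminins, 0.0029 to 0.108 for oxidative phosphorylation and -0.25 to -0.096 for sterol and fatty acid synthesis. They were 0.121 to 0.435 for immune cytokines, -0.34 to -0.113 for p53 targets, 0.166 to 0.444 for Hox genes, 0.011 to 0.36 for germline genes and 0.19 to 0.48 for collagens. A pseudocount of 0.1 moved the Hox and collagen medians to 0.508 and 0.533, and median ratio scaling gave 1 p53 target called higher in BM.

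Within CD44low lines, 30 genes were higher in BM (0.225%) and 12 in LN (0.0902%), in a fit of 4 group means with 4 residual degrees of freedom. Of these 42, 26 were protein-coding and 4 were among the 18 changed over both classes. The sign in CD44high lines was the same for 21 of the 26 protein-coding genes, whereas 14 of the 16 others, among them 4 Rnu3b copies with equal TPM, had a difference of 0 there. In 19 of the 21 protein-coding genes higher in BM, and in 5 of the 5 higher in LN, the 2 LN CD44low lines lay outside the range of the other 6 lines. These genes were called by setting LN CD44low against BM CD44low lines, so part of this position follows from the choice. The share over all tested genes was not computed. Slc39a4, the zinc importer ZIP4, was at 1.32 and 1.26 TPM in LN CD44low, 32.8 and 36.9 in BM CD44low, 56.5 and 37.1 in BM CD44high and 39.8 and 32.3 in LN CD44high lines (difference within CD44low 3.97, SE 0.30, adjusted p = 0.00828). Il1rn and Il1f6, an antagonist and an agonist of the interleukin-1 family, and Enpp1 and Enpp3, ectoenzymes that hydrolyze extracellular nucleotides, were also lowest in the LN CD44low lines, with differences within CD44low of 3.65, 3.96, 3.80 and 3.38. The cartilage genes Col2a1 and Cnmd were at 49.7 and 60.4 and at 0.91 and 8.66 TPM in LN CD44low lines, against 223 to 300 and 64.9 to 133 elsewhere. Id1, a BMP-induced inhibitor of basic helix-loop-helix factors, was at 500 and 435 TPM in LN CD44low lines and 37.3 to 68.0 in the other 6 (-3.29, adjusted p = 0.0127). Its paralog Id3 (-2.63) and Ptgs2 (-3.15) were higher in LN CD44low lines as well. The count depended on single lines, with 4 genes higher in BM without the first or the second LN CD44high line. Without the first BM CD44low line it was 986, but that arm then held only the second BM CD44low line, which stood apart, and its spread was assumed to be that of the other groups.

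Within CD44high lines, 3 genes were higher in BM (0.0225%) and 1 in LN (0.00751%). These were Saa3 (6.56, adjusted p = 0.0152), Rtl3 (listed at 0 in LN, adjusted p = 0.0152), the snoRNA Gm24494 and, in LN, Gm25117. The difference between organs itself differed between classes for 2 genes in the direction of CD44high (0.015%) and for 4 in the direction of CD44low (0.0301%), 5 of which were annotated small RNAs, each listed at 0 in at least 3 of the 8 lines. The remaining one was Fgfbp1, a secreted carrier of fibroblast growth factors, which was at 96.3 and 58.7 TPM in BM CD44low and 7.56 and 11.99 in LN CD44low lines but at 32.8 and 45.5 in BM CD44high and 161 and 167 in LN CD44high lines (interaction -4.91, adjusted p = 0.0449). Across all 13310 genes the BM minus LN differences of the 2 classes, which share no library, had a Pearson r of 0.133, and 52.2% had the same sign. This r is across genes, which are not independent, and it ranged from -0.03 to 0.25 with a library left out.

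**Figure D5:**
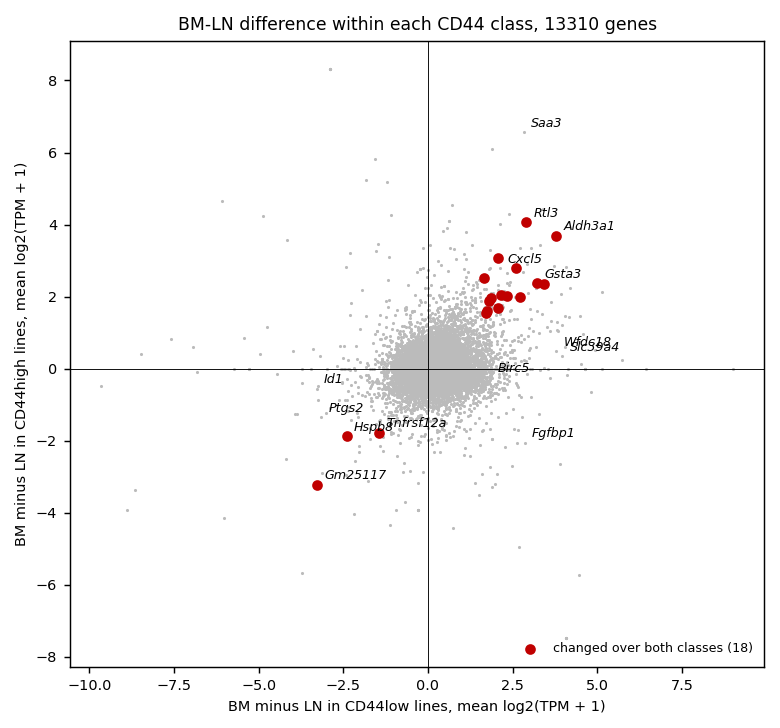
BM minus LN difference in log2(TPM + 1) within CD44low lines (x axis) against that within CD44high lines (y axis), 2 libraries per organ in each, for 13310 genes. Red points are the 18 genes changed over both classes, which lie near the diagonal, while Id1, Slc39a4 and Wfdc18 lie near the horizontal axis and Fgfbp1 has opposite signs.

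By position, no 3 neighboring tested genes were changed in a row. Chromosome 13 had the largest share of genes with BM lines all above LN lines, 57 of 562 (10.1%), and its median was 0.21. The 27 tested mitochondrial genes had the lowest median of any chromosome, -1.32, with 0 changed and 1 with LN lines all above BM lines. Mitochondrial transcripts made up 4.28% to 10.2% of TPM in BM and 6.64% to 9.65% in LN lines. On chromosome 13, BM lines all lay above LN lines in 18 of 52 histone genes of the Hist1 cluster (34.6%, median 0.81) and in 39 of 510 remaining genes (7.65%, median 0.17). Histone transcripts lack long poly(A) tails and belong to families of near-identical copies, so their TPM is uncertain here. A run of 5 neighbors with BM lines above LN lines lay on chromosome 1, formed by A130010J15Rik, Lamb3, Hsd11b1, G0s2 and Camk1g. Hsd11b1, which regenerates active glucocorticoid, was at 6.26, 4.98, 72.3 and 17.3 TPM in BM and 0, 0.56, 1.44 and 0.41 in LN (adjusted p = 0.0811), and G0s2, an inhibitor of lipolysis, at 138, 112, 485 and 203 against 14.2, 39.3, 67.1 and 35.6 (adjusted p = 0.0705). Shorter runs included the guanylate-binding genes Gbp7, Gbp3 and Gbp2 on chromosome 3, whose close sequences can share reads, and Irgm1, Psme2b and Ifi47 on chromosome 11.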

How the data were processed

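Per the methods of the study, libraries were made with a modified SMART-seq2 protocol and sequenced on a NextSeq 500, and the authors aligned reads with STAR to mm10 and quantified them with RSEM on GENCODE. The deposited values are TPM per gene, which the authors scaled within each library; read counts were not used here, so the depth behind a level is unknown and intervals for counting error cannot be given. Gene IDs matched mouse GENCODE M21. Reads that near-identical genes share are divided by RSEM's model.

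TPM were transformed to log2(TPM + 1) and genes reaching 1 TPM in 2 or more of these 8 libraries were then fitted with limma 3.58.1 (R 4.3.3, empirical Bayes with a mean-variance trend), with organ and CD44 label as terms and 5 residual degrees of freedom. Differences within a CD44 label and their interaction came from 4 group means. P-values were two-sided and adjusted by Benjamini-Hochberg over all genes tested. An exact permutation test of 4 against 4 libraries cannot give a p under 0.0286. Named genes were the DEGs with non-overlapping organs and the largest fold changes, the most abundant changed genes, the changed or most abundant members of each list, genes that the study's Results name for either organ, Cd44 and Epcam, on-off genes, and the largest interactions. Members, lists and markers were chosen with earlier results of these data known. Promoter windows and starts came from RefSeq on GRCm38.p6. Alternatives covered the pseudocount, filters, scaling, replicate block, CD44 term, thresholds, the fit of 14 libraries and each library left out, and after seeing the data also protein-coding genes alone, array weights and a fit without variance trend. The fits were tested on simulated data. Single-cell matrices of the series were not used here. Figures were drawn with matplotlib 3.10.9. A gene withheld from this text is not reported here.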

Additional observations from a re-analysis of the deposited data

Results flagged for a closer look

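Among 130 groups of 4 libraries examined, 14 had 1 library far from the other 3 by Dixon's criterion, which chance gives in about 1 of 20 groups. The second BM CD44low line accounted for 7 of them. There, Timp2, a metalloproteinase inhibitor, was at 1364 TPM against 119 to 163 in the other BM lines, Gnas, the stimulatory G protein alpha subunit, at 613 against 92.2 to 112, Itgb1 at 144 against 69.2 to 77.8 and Cdh1 at 51.5 against 25.5 to 27.0. Ldha, at 1925 against 4316 to 4644 TPM, and Clu, at 52.98 against 168 to 208, were lower, and 13052 genes reached 1 TPM against 12008 to 12077. In the first BM CD44low line Rhox5 was at 515 TPM against 412 to 423. In the first LN CD44low line Ccn1, a matrix-associated YAP target, was at 1127 TPM against 214 to 229 in the other LN lines, Krt8 at 756 against 1505 to 1624, and Jam3 at 0.4 against at most 0.05. In the second LN CD44low line the proliferation genes Birc5 (345 against 2496 to 3645 TPM) and Rrm1 (68.6 against 266 to 335) and the chemokine Ccl2 (8.98 against 33.1 to 36.5) were lowest.

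The BM minus LN difference itself differed between CD44 labels for 6 genes, by the limma interaction of CD44high minus CD44low. Fgfbp1 gave -4.91 (adjusted p = 0.0449), with BM lines the higher pair among CD44low and LN lines among CD44high. The other 5 were annotated small RNAs of 70 to 121 bases. The interaction was -6.43 for Snord19 (adjusted p = 0.0176) and -5.14 for Gm24148 (0.0316), each listed at 0 outside the BM CD44low lines. It was -4.13 for Mir1894 and 5.72 for Gm26109 (both 0.0449), the latter with 36.0 and 73.9 TPM in the LN CD44low lines. For Mir546 it was 7.74 (0.0449).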

How the results depend on the processing

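The 18 changed genes kept the sign of their difference under every alternative run, whereas the counts of calls did not hold. Deviations of same-numbered replicates from their group means had correlations between -0.20 and 0.13. With 2 lines per group these cannot show whether same-numbered lines share a mouse. With the replicate block 3 genes were higher in BM and 1 in LN, all DEGs, 10 and 2 within CD44low, and 0 within CD44high and for the interaction. For genes higher in BM and in LN, the counts were 0 and 0 without a filter, 2 and 1 with the filter at 5 TPM, 204 and 44 in the fit of 14 libraries, 6 and 1 without the CD44 term, 856 and 341 by unadjusted p, 36 and 6 with protein-coding genes alone and 194 and 49 with array weights, and 6 were higher in LN with median ratio scaling. DEGs in the same settings numbered 0 and 0, 2 and 1, 55 and 8, 4 and 1, 83 and 17, 21 and 1, and 49 and 4. Within CD44low they were 13 and 4 at 5 TPM and 111 and 32 with 14 libraries, 18 in BM with median ratio scaling, and in LN 7 with a pseudocount of 0.1, 19 without a filter and 6 among protein-coding genes. Within CD44high they were 9 and 3 with a pseudocount of 0.1, 0 and 0 without a filter, 46 and 10 with 14 libraries, and 0 in LN at 5 TPM or among protein-coding genes. Interactions numbered 9 and 10 with 14 libraries, 1 and 2 with median ratio scaling and 0 with a pseudocount of 0.1, either other filter or protein-coding genes. With each library left out, changed genes ranged from 0 to 8 in BM and 1 to 4 in LN, DEGs likewise, within CD44low from 4 to 986 and 1 to 150, within CD44high from 0 to 11 and 0 to 5, and interactions from 0 to 10 and 0 to 25. Genes that were not called and changed sign had these differences with array weights, 2.16 for Mir546, -1.04 for Fgfbp1, -0.012 for Col18a1, -0.13 for Timp2, 0.076 for B2m, -0.28 for Rrm1, 0.12 for Ldha, -0.13 for Gnas, -0.027 for Rhox5 and -0.38 for Cdh1. With a library left out they ranged from -1.31 to 0.66 for Mir546, -0.23 to 0.98 for Fgfbp1, -0.29 to 0.18 for Epcam, -0.66 to 0.12 for Krt8, -0.21 to 0.22 for Sparc, -0.11 to 0.38 for Col18a1, -0.16 to 1.06 for Timp2, -0.36 to 0.047 for B2m, -0.47 to 0.33 for Rrm1, -0.41 to 0.25 for Ldha, -0.23 to 0.060 for Fdps, -0.20 to 0.78 for Gnas, -0.070 to 0.050 for Rhox5, -0.030 to 0.52 for Irf5 and -0.24 to 0.23 for Cdh1. The cause of these changes was not tested. Protein-coding genes alone, array weights and the fit without variance trend were chosen after seeing the data. Read counts behind the TPM are unknown, which limits what low genes can show.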
